A study of Homo sapiens with 14 samples.

Results

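All lines of PC3 background were set against all lines of DU-145 background, and the genes that held 1 level throughout each background and differed between the backgrounds were drawn out. The comparison took in all 14 arrays of the series, 10 of PC3 and 4 of DU-145 background, and the unit was the line: 5 PC3 line means against 2 DU-145 line means. Of 18372 genes tested, 117 (0.637%) were constant within each background and apart between them. Constant means that the line means of a background spanned at most 0.5 on the log2 scale, and apart means that the nearest PC3 and DU-145 lines lay at least 1 log2 unit (2-fold) from each other.

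The series asked how bone-metastatic human prostate cancer cells differ in expression from those that do not form bone metastases. The PC3 side held the sublines PC3-ML and PC3-N, a pair of clones, PC3-ML (Clone 1) and PC3-ML (Clone 3), that each grew from a single PC3-ML cell, and PC3-N(PDGFRα), a PC3-N derivative made to overexpress PDGFRα, a receptor for platelet-derived growth factor. The DU-145 side held the unmodified line DU-145 and its own derivative with that receptor, DU-145 (PDGFRα). Each line was read on 2 arrays from different passages, and all lines grew in the same serum-supplemented medium with gentamicin. Per the labels, PC3-ML, both clones and PC3-N(PDGFRα) are bone metastatic, while PC3-N and both DU-145 lines are not. All 5 PC3 lines descend from 1 patient-derived line and both DU-145 lines from another, so p-values measure the background difference against the spread between related lines, not between tumours.

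PC3 and DU-145 are the standard androgen-independent prostate carcinoma lines, PC3 established from a bone metastasis and DU-145 from a brain metastasis. Epithelial cells hold together at adherens junctions, where cadherins on the surface bind beta-catenin and alpha-catenin links that complex to actin. PC3 is known to have lost CTNNA1, which encodes alpha-E-catenin, and has also been described as lacking STAT3, the transcription factor through which interleukin-6 (IL-6) and related cytokines signal. Both genes therefore mark the background.

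Values are linear array intensities after the authors' normalisation (RMA, which corrects background, equalises the arrays and summarises the probes of a set). They ran from 18.5 to 8654, with array medians of 29.9 to 31.6, and are compressed near their lower end. A gene under 32 (log2 of 5) on every array of a group is called near the floor here, and a fold against such a group is a low estimate. Across genes, which are not independent replicates, Pearson's r was 0.989 to 0.996 between both arrays of a line. It was 0.972 to 0.993 between arrays of different PC3 lines, 0.985 to 0.991 between those of different DU-145 lines and 0.926 to 0.948 between backgrounds. Per array, the backgrounds were thus further from each other than any lines within them.

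Between the backgrounds, 3237 genes (17.6%) passed limma on line means at a Benjamini-Hochberg adjusted p under 0.05, with 1764 (9.60%) higher and 1473 (8.02%) lower in PC3. All 10 PC3 arrays lay above all 4 DU-145 arrays for 1857 genes (10.1%) and below them for 1361 (7.41%). Both called by limma and at least 2-fold were 682 genes (3.71%), 424 higher (2.31%) and 258 lower (1.40%). The balance of directions followed the scaling: of the called genes 54.5% were higher in PC3 as deposited, 50.2% with each array centred on its median and 43.3% after quantile normalisation. Without genes that were dim in every line the share was 62.4%. No direction of the whole is therefore given, and single genes are reported as measured. The count fell to 1569 without the line DU-145 and to 1180 without DU-145 (PDGFRα), where 1 DU-145 line was left and the spread came from the PC3 lines alone. It was 2032 where the second array of every line was left out.

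Most genes, 14630 of 18372, were constant within both backgrounds, and 297 were apart, 172 higher and 125 lower in PC3. Of the 297, 117 were both, 43 higher in PC3 (0.234% of genes tested) and 74 lower (0.403%). The 117 were chosen on this contrast, so their differences are a description; the highest adjusted p among them in limma was 0.0025. The gap of the constant gene just inside the limit, HTR1D, was 1.001 and that of the nearest outside, ZNF626, was 0.998. Among apart genes, the widest range taken in was 0.495 (CCDC47) and the narrowest left out 0.501 (MYBL1). Of the 180 apart genes that were not constant, 157 varied too much among the PC3 lines alone, 13 between the DU-145 lines alone and 10 in both. The number of constant and apart genes rose to 192 without DU-145 and to 185 without PC3-ML (Clone 1). Leaving out a line can ease both limits: fewer lines have to lie close together, and the gap is taken to the nearest remaining line.

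**Figure D1:**
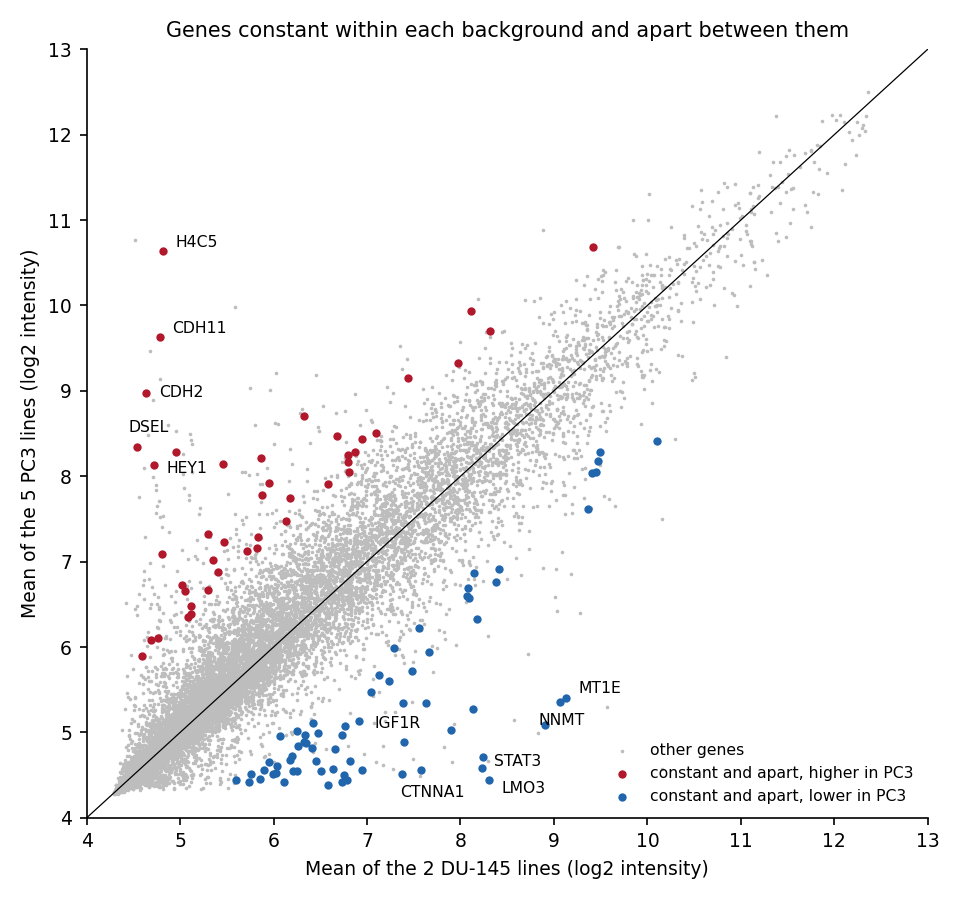
Mean log2 intensity over the 5 PC3 lines (vertical axis) against the mean over the 2 DU-145 lines (horizontal axis), 1 point per gene, with the diagonal marking equal levels. Red points are the 43 constant and apart genes higher in PC3 and blue points the 69 lower that are not Y-linked, many of which lie along the bottom edge, near the PC3 floor.

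The constant and apart genes of both directions reached the floor unequally, but the choice of genes favours this. Values near the floor are compressed and pass the range limit easily, and PC3 had more lines to hold level. Before that limit, 172 apart genes were higher and 125 lower in PC3. Of the 180 that it left out, 157 failed on the PC3 range alone. How much of the inequality came from the limit was not tested. For 43 of the 74 genes lower in PC3, the PC3 mean was under 32, and for 10 of the 43 genes higher in PC3 the DU-145 mean was. A stricter count asked for under 32 on every array of 1 background and over 128 (log2 of 7) on every array of the other. It found 13 genes on in PC3 alone (0.0708%): ADGRF1, CALB1, CDH11, CDH2, DSEL, FBN2, FST, H4C5, HEY1, INHBA, SERPINB7, SLIT2 and SULF2. It found 11 genes on in DU-145 alone (0.0599%), of which 3 are Y-linked and the other 8 are CTNNA1, DDX43, EFEMP1, LMO3, MAP7D3, NEO1, STAT3 and UCHL1. Several of the PC3 set act outside the cell: FST (follistatin) binds the activin that INHBA encodes a subunit of, FBN2 is a fibrillin of microfibrils, SLIT2 a guidance ligand and SULF2 an enzyme that trims heparan sulfate. In the DU-145 set, EFEMP1 is a matrix protein and NEO1 (neogenin) a receptor.

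The genes with the largest constant differences toward PC3 were a histone gene and a pair of cadherins. Genes of the constant and apart set were chosen for a gap between the backgrounds, so a lack of overlap in them follows largely from that choice. H4C5, a histone H4 gene, read 1356, 1549 and 1846 (lowest, median and highest of the 10 PC3 arrays), against 31.5 and 26.5 in DU-145 and 26.5 and 28.4 in DU-145 (PDGFRα). That is a difference of 5.82 ± 0.11 (log2, standard error), or 56.4-fold, with no overlap between the backgrounds; histone H4 genes encode the same protein from near-identical sequence, so the probes may not tell them apart. DSEL, a dermatan sulfate epimerase relative, read 219, 338 and 371 against 22.5, 23.8, 23.5 and 23.4, a difference of 3.80 ± 0.10. Every PC3 array lay far above a DU-145 level that sat on the floor.

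HEY1 and JAG1, which act in Notch signalling, and SMARCA4 were further members of this set, chosen by size alone. HEY1, a repressor that Notch signalling induces, read 229.8, 279.5 and 332 on PC3 arrays against 23.9, 25.9, 30 and 26.1 on DU-145 arrays (difference 3.41 ± 0.07). JAG1, a Notch ligand, read 111, 134 and 173 against 26.4, 27.2, 30.3 and 28.0 (2.28 ± 0.12). Neither gene overlapped between the backgrounds, as the choice of genes made likely. SMARCA4, the ATPase of SWI/SNF chromatin remodelling, was above the floor level on every array of both backgrounds. It read 247, 296 and 364 in PC3 and 57.5, 62.0, 55.1 and 58.1 in DU-145 (2.35 ± 0.12). The other named genes of this direction were RASSF8 (2.38), a Ras-association protein, DOCK4 (1.97), an exchange factor for small GTPases, TEX2 (1.90), MAP4K4 (1.83), a kinase, and INTS2 (1.79), a subunit of Integrator. PRSS3, which encodes mesotrypsin, and its relative PRSS3P2 differed by 2.03 and 3.33, and their sequences are close enough that probes of 1 may detect the other.

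Toward DU-145, LMO3, a LIM-domain transcription cofactor, led the named genes. It read 20.8, 21.7 and 22.9 on the PC3 arrays and 386 and 214 in DU-145 and 335 and 359.9 in DU-145 (PDGFRα), a difference of -3.86 ± 0.07. All PC3 arrays were at the floor and within 0.08 of each other as line means. CAMK2N1, an inhibitor of calcium/calmodulin-dependent kinase II, read 29.3, 33.6 and 45.3 against 346, 658, 479.8 and 483 (-3.82 ± 0.11). NNMT, which methylates nicotinamide, read 34.6, 40.7 and 48.2 against 675, 436, 658 and 423 (-3.71 ± 0.09). Neither overlapped, as the choice of genes made likely. Passages of DU-145 for CAMK2N1, and of both DU-145 lines for NNMT, differed more from each other than the DU-145 line means did. MT1E, a metallothionein with near-identical relatives, differed by -3.72, MAP7D3, a microtubule-associated protein, by -3.54, and MUC1, a membrane mucin, by -2.86. ELOVL7, a fatty acid elongase, differed by -2.38, ZNF518A by -2.35, SLFN12 by -2.32 and COP1, an E3 ubiquitin ligase, by -2.28. Their levels on each array are shown in the plot of constant genes.

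**Figure D2:**
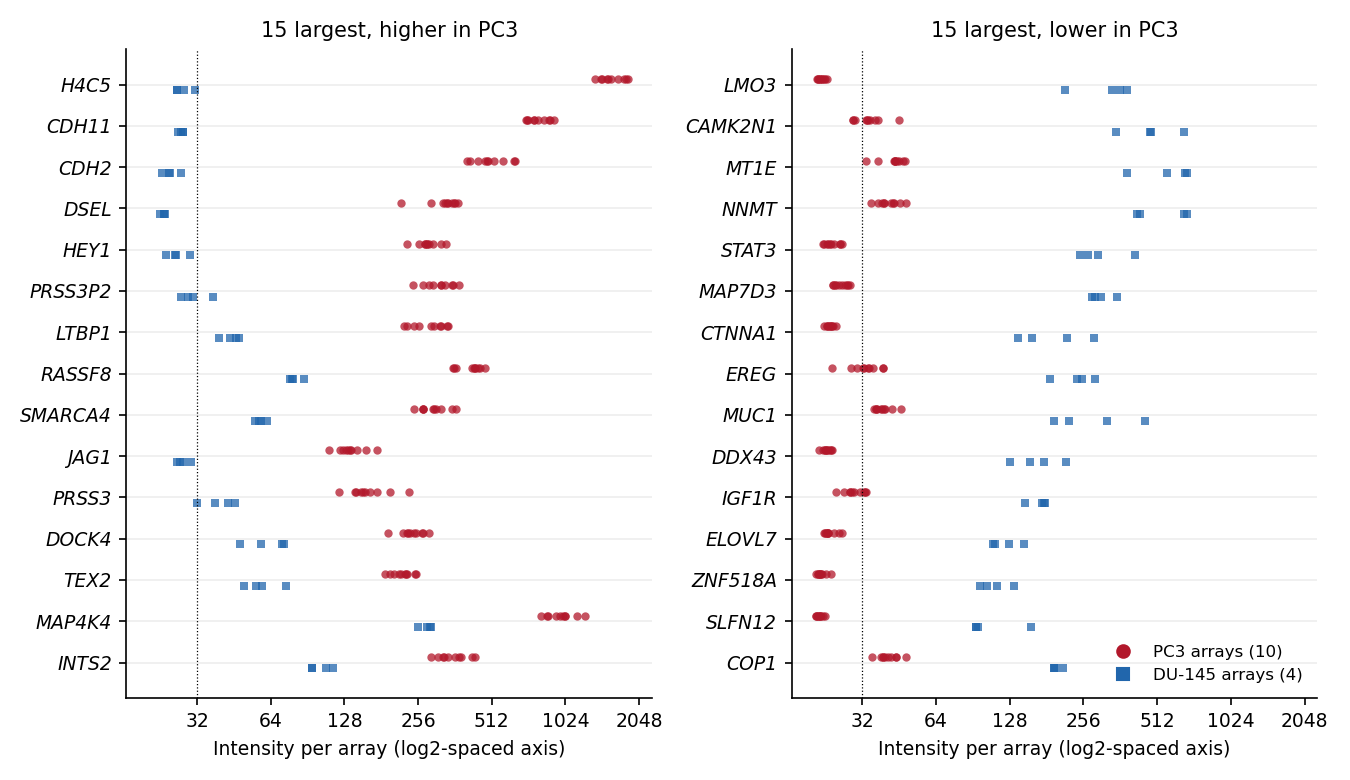
Intensity on each of the 14 arrays (logarithmic axis) for the 15 named genes with the largest constant difference in each direction, 1 point per array, coloured by background. The genes were chosen for small ranges and a gap between line means, so separate clusters follow largely from the choice. The 10 PC3 points and 4 DU-145 points do not overlap for any of the 30 genes. Over all genes tested, 10.1% had every PC3 array above every DU-145 array and 7.41% had every PC3 array below.

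Promoter sequences of 4 genes that were near the floor in 1 background and on in the other are shown. They differ in how many CG dinucleotides, the sites of DNA methylation, they hold. Why the signal was absent was not tested, and for CTNNA1 and STAT3 PC3 is described as lacking the gene. Each is the reference sequence of the 250 bases before the most upstream RefSeq start (GRCh38.p14), 5′ to 3′, with CG in capitals. It was not read from these cells. CTNNA1 lies at chr5:138753175-138753424 on the plus strand, STAT3 at chr17:42388443-42388692, LMO3 at chr12:16608215-16608464 and CDH2 at chr18:28177131-28177380, the last 3 on the minus strand.
CTNNA1: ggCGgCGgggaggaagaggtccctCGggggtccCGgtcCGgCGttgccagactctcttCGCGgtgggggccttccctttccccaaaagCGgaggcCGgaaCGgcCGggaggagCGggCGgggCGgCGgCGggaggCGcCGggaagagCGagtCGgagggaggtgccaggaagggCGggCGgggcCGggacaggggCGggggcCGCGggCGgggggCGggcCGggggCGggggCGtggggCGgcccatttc
STAT3: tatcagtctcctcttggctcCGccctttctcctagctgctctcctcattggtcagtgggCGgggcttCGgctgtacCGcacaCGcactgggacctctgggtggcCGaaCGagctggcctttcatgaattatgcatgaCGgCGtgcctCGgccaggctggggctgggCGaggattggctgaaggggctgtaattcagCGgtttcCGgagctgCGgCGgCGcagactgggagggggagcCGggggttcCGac
LMO3: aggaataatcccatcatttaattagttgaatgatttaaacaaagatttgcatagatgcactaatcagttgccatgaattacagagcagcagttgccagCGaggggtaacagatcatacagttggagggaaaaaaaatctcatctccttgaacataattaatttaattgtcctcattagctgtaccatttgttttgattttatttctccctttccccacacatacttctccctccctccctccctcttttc
CDH2: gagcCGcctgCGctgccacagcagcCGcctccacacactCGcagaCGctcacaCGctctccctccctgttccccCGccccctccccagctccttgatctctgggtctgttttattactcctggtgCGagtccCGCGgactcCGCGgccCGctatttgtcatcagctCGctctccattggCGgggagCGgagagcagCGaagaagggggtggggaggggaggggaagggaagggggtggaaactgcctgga
The CTNNA1 window holds 33 CG dinucleotides, the STAT3 window 18, the CDH2 window 17 and the LMO3 window 1. Among all genes tested, 14189 of 18372 had such a window in the table, with a median of 18 and at least 1 CG in 97.1%. The median was 22 for the constant genes higher in PC3 (37 of 43 with a window) and 17.5 for those lower (50 of 74). Genes near the floor in PC3 thus include both a CG-rich and a CG-poor start; methylation was not measured.

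Adhesion genes differed in both directions and by large amounts. CTNNA1, alpha-E-catenin, read 22.3, 23.6 and 24.9 on the 10 PC3 arrays, and 282 and 157 in DU-145 and 219 and 138 in DU-145 (PDGFRα). Every PC3 array was at the floor and every DU-145 array over 128, so the marker of the backgrounds matched the labels on all 14 arrays. The difference was -3.02 ± 0.07 (8.12-fold; limma adjusted p = 6.33e-06). Of the 18 measured adherens junction genes, 3 were called higher and 5 lower in PC3 (16.7% and 27.8%, against 9.60% and 8.02% of all genes), with a median difference of -0.03 beside -0.01 over all genes. The junction's beta-catenin, CTNNB1, read 470.3 in PC3 and 299 in DU-145 and did not pass (0.65, adjusted p = 0.111).

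The cadherins divided. CDH2 (N-cadherin), typical of mesenchymal and neural cells, read 405, 492 and 635 in PC3 against 24.6, 23.0, 24.8 and 27.6 in DU-145, a difference of 4.34 ± 0.13 (adjusted p = 1.50e-05). CDH11 (cadherin-11), known from osteoblasts and mesenchyme, read 704, 775 and 921 against 26.7, 28.0, 28.0 and 27.6, a difference of 4.85 ± 0.08 (adjusted p = 1.90e-06). Both were at the floor on all DU-145 arrays and constant among the PC3 lines. CDH1 (E-cadherin), the epithelial cadherin, read 25, 29.4 and 33.9 in PC3 and 250.0, 81.8, 43.6 and 63.3 in DU-145, a difference of -1.56 ± 0.34 (adjusted p = 0.0263). It did not overlap between backgrounds, yet the DU-145 line means differed by 1.44 and 1 DU-145 array stood well above the others. Its call was lost without the second array of DU-145 or of DU-145 (PDGFRα), at an adjusted p of up to 0.0602, or without any 1 of the lines PC3-ML, PC3-N and PC3-N(PDGFRα), at up to 0.0562. CDH3 (P-cadherin) was lower (-0.97), as was AFDN (afadin, -0.98), and VCL (vinculin), which binds alpha-catenin, was higher (1.29).

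Desmosomes are junctions anchored on keratin filaments. Of 18 measured desmosome and tight junction genes, 4 were higher and 3 lower in PC3 (22.2% and 16.7%, against 9.60% and 8.02% of all genes; 3 and 4 genes after quantile normalisation), with a median of -0.07. DSG2 (desmoglein-2) read 169, 197 and 219.8 in PC3 and 895, 666, 529.7 and 598 in DU-145 (-1.75 ± 0.12, adjusted p = 4.41e-04). DSC3 (desmocollin-3) read 139, 169 and 412 against 35.4, 34.8, 36.3 and 42.9 (2.41 ± 0.39, adjusted p = 0.00882), and PC3-ML (Clone 3) was the highest of the PC3 lines. The plakophilins PKP1 (1.36) and PKP2 (1.16), which link desmosomal cadherins to the filaments, were higher in PC3. DSC3 lost its call without either DU-145 line (adjusted p up to 0.0669) and PKP2 without DU-145 (PDGFRα) (0.0599), while DSG2 and PKP1 kept theirs without any array or line.

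Neighbours of CTNNA1 on chromosome 5 did not share its loss of signal. Of the 10 measured genes on each side in RefSeq order, 2 of 20 were called lower and 0 higher by limma, a share close to the 8.02% of all genes that were lower. EGR1, an immediate early transcription factor, read 36.2 to 42.9 in PC3 and 71.2 to 105 in DU-145 (-1.09). LRRTM2, which lies inside a CTNNA1 intron, was under the floor in both backgrounds (-0.20), and its call ended without DU-145 (PDGFRα) (adjusted p = 0.128). HSPA9, a mitochondrial chaperone 2 genes before CTNNA1, read 1512 to 2209.8 in PC3 and 1415 to 1620.3 in DU-145, and MATR3, a nuclear matrix protein 3 genes after, read 238 to 343 and 276 to 319. Both overlapped between the backgrounds and neither passed. The 5 neighbours at the floor on all PC3 arrays were at the floor on all DU-145 arrays as well.

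STAT3 on chromosome 17, a neighbourhood chosen after its values were seen, differed from this. STAT3 read 22.1, 23.6 and 26.3 on the PC3 arrays and 416, 294, 267 and 248 on the DU-145 arrays, with no overlap (-3.64 ± 0.12, adjusted p = 1.91e-05). Of its 20 measured neighbours, 7 were called lower in PC3 and 0 higher by limma, where 8.02% of all genes were lower. ATP6V0A1, a subunit of the vacuolar proton pump 2 genes after STAT3, read 20.3 to 22.4 in PC3 and 81.5 to 155 in DU-145 (-2.32). RAB5C, a GTPase of early endosomes, read 25.7 to 28.8 against 40.2 to 118 (-1.20; not called without both clones, adjusted p = 0.0630), and CAVIN1, which coats caveolae, 21.9 to 26.1 against 36.4 to 50.1 (-0.79). All PC3 arrays were at the floor for 10 of the 20 neighbours, 5 of which left the floor in DU-145: KAT2A, RAB5C, STAT5B, CAVIN1 and ATP6V0A1. From 6 genes before to 2 genes after STAT3, KCNH4 and HCRT were over 32 on every PC3 array, at 32.2 to 37.1 and 34.1 to 47.4, levels that overlapped DU-145. NAGLU, the next gene after ATP6V0A1, differed by 0.01 and did not pass. PSMC3IP, further along, was lower by call (-0.87) without reaching the floor, and lost it without DU-145 replicate 2 (adjusted p = 0.0963) or without either DU-145 line (up to 0.171). Copy number was not measured.

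**Figure D3:**
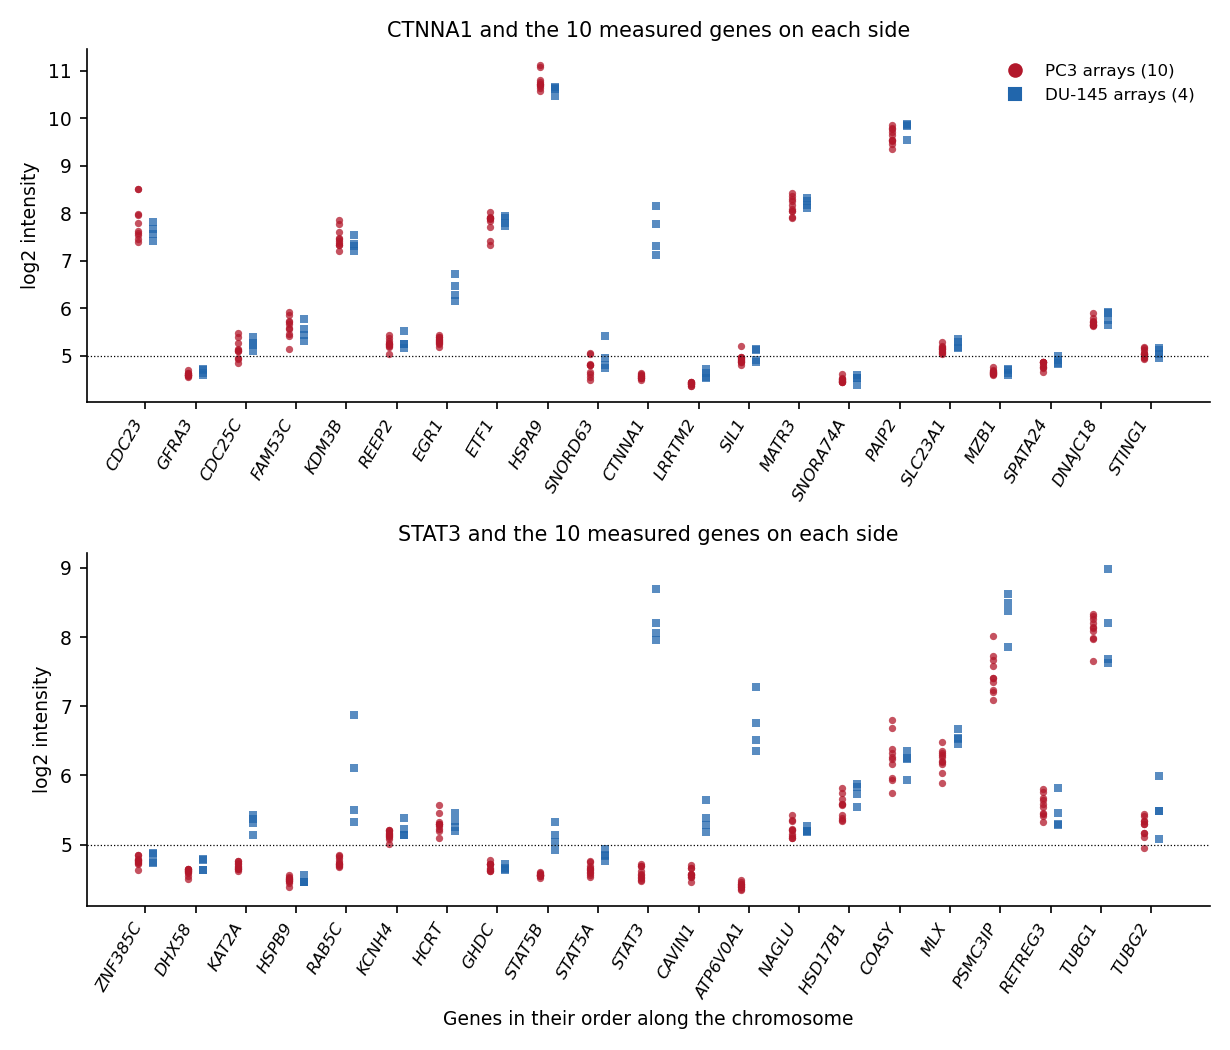
Log2 intensity on each array (vertical axis) for CTNNA1 and STAT3 and the 10 measured genes on each side in RefSeq order, coloured by background, with a dotted line at the floor level, log2 of 5. Around CTNNA1 the backgrounds overlap for most genes, while around STAT3 several PC3 levels lie at the floor where DU-145 does not.

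In the IL-6 and STAT list, IL6, OSMR, IL11, STAT3, STAT5A and STAT5B were called lower in PC3, and 13 genes were not called. STAT3, STAT5A and STAT5B lie side by side in the chromosome 17 stretch above, so their calls are not separate observations. STAT5A was under the floor on all arrays of both backgrounds. IL11 read 57.6 in PC3 and 72.7 in DU-145 and passed narrowly (-0.34, limma adjusted p = 0.0486). Of 19 measured genes, 6 were lower and 0 higher (31.6% lower against 8.02% of all genes; 8 lower after quantile normalisation and with arrays centred), with a median of -0.10. IL6 itself, a cytokine, read 24.1, 27.4 and 32.9 in PC3 and 80.5, 118, 117 and 94.4 in DU-145 (-1.86 ± 0.08, adjusted p = 4.71e-05). OSMR, the oncostatin M receptor subunit, read 75.2, 122 and 153 against 685, 559, 548 and 538 (-2.33 ± 0.24, adjusted p = 0.00169), and its call ended without both PDGFRα lines (0.0502). Neither gene overlapped between the backgrounds. STAT5B was lower by 0.55 and STAT5A by 0.20; STAT5A overlapped, and its call ended without the first array of PC3-N(PDGFRα), DU-145 (PDGFRα) or PC3-ML (Clone 3), at an adjusted p of up to 0.0817, or without PC3-ML, PC3-N or either DU-145 line, at up to 0.153. The shared signalling receptor IL6ST (gp130) read 287 in PC3 and 345 in DU-145 and JAK1 268 and 192, neither past the threshold (adjusted p = 0.659 and 0.0701).

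Among EGF receptor family genes and ligands, only EREG (epiregulin), an EGFR ligand, was called of 13 measured (7.69% lower, near the 8.02% of all genes). It read 24.1, 33.1 and 38.8 in PC3 and 287, 252, 242 and 187 in DU-145 (-2.88 ± 0.14, adjusted p = 1.02e-04), with no overlap. The receptor EGFR read 60.7 and 67.0 and the ligands TGFA 52.5 and 59.9 and HBEGF 100.1 and 108, PC3 first, with adjusted p of 0.67, 0.291 and 0.8.

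IL-1 and NF-kB genes were led by IL1B, interleukin-1 beta, which varied most within PC3. It read 71.4, 511 and 1103 on PC3 arrays and 27.3, 29.7, 32.1 and 28.2 on DU-145 arrays (3.73 ± 0.96, adjusted p = 0.0421). The backgrounds did not overlap, but the PC3 line means spanned 3.72 on the log2 scale. In the whole list of 22, 1 gene was higher and 4 were lower (4.55% and 18.2%, against 9.60% and 8.02% of all genes), with a median of -0.05. TNFAIP3 (A20), which restrains NF-kB, was lower by 0.90, IL1R1, the IL-1 receptor, by 0.42, and its partner IL1RAP by 0.33. The calls of IL1B, IL1R1 and IL1RAP were lost when any single line was left out other than PC3-N, PC3-ML (Clone 1) and PC3-ML (Clone 3) respectively (adjusted p up to 0.259). IL1B lost it also without PC3-N replicate 2 (0.0535), IL1R1 without DU-145 replicate 1 (0.11) and IL1RAP without any of 7 arrays (up to 0.192), PC3-ML replicate 2, PC3-N replicate 1, PC3-N(PDGFRα) replicate 2, both first DU-145 replicates and the first of both clones.

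Mesenchymal markers were higher in PC3 for 5 of 15 measured genes and lower for 1 (33.3% and 6.67%, against 9.60% and 8.02% of all genes), with a median of 0.05, and the cadherins above are 2 of the 5. FN1 (fibronectin) read 153, 238 and 485 in PC3 and 30.7, 32.5, 31.2 and 36.9 in DU-145 (2.99 ± 0.39, adjusted p = 0.00423; 0.0590 without both PDGFRα lines). S100A4 (2.18) and SNAI2 (1.85), the transcription factor Slug, were also higher. TGFBI, a TGF-beta-induced protein of the matrix, read 25.4, 26.5 and 28.8 in PC3 and 186, 171, 80.2 and 95.4 in DU-145 (-2.22 ± 0.24, adjusted p = 0.0021). VIM (vimentin) overlapped, at 271, 324 and 376 against 304, 321, 262 and 359.6 (0.05, adjusted p = 0.803), and ZEB1 read 81.8 and 77.7 (adjusted p = 0.825). Members thus lay far apart between the backgrounds or overlapped, with 9 of 15 not called.

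Of 18 TGF-beta pathway genes, 4 were higher and 1 lower in PC3 (22.2% and 5.56%, against 9.60% and 8.02% of all genes), with a median of 0.23. INHBA, the activin A subunit, read 169.6, 209.9 and 414 in PC3 against 25.9, 26.5, 26.0 and 26.2 in DU-145 (3.28 ± 0.35, adjusted p = 0.002). LTBP1, which holds latent TGF-beta in the matrix, read 225, 293 and 339.9 against 46.1, 47.6, 39.4 and 43.6 (2.68 ± 0.15, adjusted p = 1.79e-04). Neither overlapped. SMAD3 (0.82), a signal transducer, lost its call without either DU-145 line (adjusted p up to 0.117). TGFBR2 (0.74), a receptor, lost its call without any single line but PC3-ML (Clone 1) (up to 0.276) and without PC3-ML replicate 2, PC3-N(PDGFRα) replicate 1, DU-145 replicate 2, DU-145 (PDGFRα) replicate 2 or PC3-ML (Clone 1) replicate 1 (up to 0.0975).

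Bone and osteomimicry genes were called for 2 of 18, both higher in PC3 (11.1%, near the 9.60% of all genes; median 0.01). DKK1, a secreted Wnt inhibitor that restrains bone formation, read 523, 643 and 919.9 in PC3 and 154, 176, 174 and 188 in DU-145 (1.95 ± 0.18, adjusted p = 0.00122). TNFRSF11A (RANK), the receptor of the osteoclast factor RANKL, was higher by 0.59 and lost its call without PC3-N, PC3-ML (Clone 3) or either DU-145 line (up to 0.161). SPP1 (osteopontin) was near the floor in both, at 21.8 and 22.3, and RUNX2, the osteoblast regulator, read 38.9 and 28.0 (adjusted p = 0.155). Of the 5 PC3 lines, 4 carry the bone metastatic label and no DU-145 line does, so label and background largely coincide.

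Integrins, the receptors for matrix, were higher for 3 of 17 and lower for 1 (17.6% and 5.88%, against 9.60% and 8.02% of all genes; median 0.03). ITGB1, the common beta-1 chain, read 299, 405 and 436 in PC3 and 649, 656, 616 and 631 in DU-145 (-0.76 ± 0.11, adjusted p = 0.0054; 0.0832 without both PDGFRα lines) and did not overlap. ITGA2 (1.17) and ITGA6 (0.83), chains that pair with it for collagen and laminin, and ITGB8 (1.52) were higher in PC3. ITGA2 lost its call without DU-145 (PDGFRα) (adjusted p = 0.0843), and ITGA6 and ITGB8 without either DU-145 line (up to 0.145). Proteases and plasminogen activation genes were higher for 2 of 21 and lower for 2 (9.52% each, near the 9.60% and 8.02% of all genes; median 0.02). SERPINE2, a protease inhibitor, was higher by 2.29 and ADAMTS1, a matrix protease, by 1.82, while the membrane sheddases ADAM10 and ADAM17 were lower by 0.74 and 0.58. All 4 lost their calls without either DU-145 line (up to 0.125).

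Caveolae genes were lower for 3 of 9 and higher for 0 (33.3% lower, against 8.02% of all genes; median -0.09), and all 3 are cavins, the coat proteins of these membrane pits. CAVIN1 and CAVIN3 were lower by 0.79 and 1.18; CAVIN3 read 23.1, 26.3 and 29.6 in PC3 and 46.0, 61.0, 85.2 and 52.1 in DU-145. CAVIN2 was lower by 0.29 and lost its call without PC3-N or DU-145 (adjusted p up to 0.0801). CAV1 (caveolin-1), the membrane protein of the same pits, overlapped, at 280.1, 461 and 537 against 385, 365, 372 and 459.8 (0.18, adjusted p = 0.39). For the 3 called cavins every PC3 array was at the floor and under every DU-145 array. Over all genes tested, 7.41% had every PC3 array below every DU-145 array. CAVIN2 was dim in the other background as well, at 32.8 and 26.4 in DU-145 and 25.4 and 25.3 in DU-145 (PDGFRα). CAVIN1 is the next measured gene after STAT3 in the chromosome 17 stretch above, so its call is not separate from that stretch. CAVIN4, the muscle cavin, read 35.7 in PC3 and 34.2 in DU-145 and did not pass (adjusted p = 0.654).

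Interferon-stimulated genes were lower for 6 of 20 and higher for 1 (30.0% and 5.00%, against 8.02% and 9.60% of all genes), with a median of -0.25. IFIT1 read 27.6, 39.5 and 84.6 in PC3 and 144, 84.1, 83.0 and 315 in DU-145 (-1.63 ± 0.34, adjusted p = 0.0216) and overlapped at the edge. IFIT3 (-1.15), MX1 (-0.70) and IFI6 (-0.62), all antiviral effectors, were lower too, and DU-145 (PDGFRα) replicate 2 was the highest DU-145 array for IFIT1, IFIT3 and MX1. Without that array IFI6 and IFIT1 were not called (adjusted p of 0.269 and 0.0614), IFIT3 not without PC3-N(PDGFRα) replicate 2 (0.0542). IFIT1 and IFIT3 were also lost without either DU-145 line (up to 0.183) and IFI6 without PC3-N or DU-145 (up to 0.141). Antigen presentation genes were lower for 3 of 10 and higher for 0 (30.0% lower; median -0.18). PSMB9, an immunoproteasome subunit, read 27.0, 34.0 and 61.5 against 181, 136, 122 and 151 (-1.95 ± 0.28, adjusted p = 0.00557), and its other probe set differed by -1.94. It lost its call without DU-145 (0.0508). B2M, the light chain of class I molecules, was lower by 0.58 and lost its call without PC3-ML, PC3-N or either DU-145 line (up to 0.179). TAPBP was lower by 0.45, and its call was lost without any single line but DU-145 (PDGFRα) (up to 0.22). Leaving out 1 array kept it called for PC3-ML replicate 1, PC3-N replicate 1, PC3-N(PDGFRα) replicate 2 and DU-145 (PDGFRα) replicate 1 and lost it for the 10 others (up to 0.159).

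Redox genes were called in both directions, 4 higher and 5 lower of 20 measured in the glutathione and NRF2 list (20% and 25%, against 9.60% and 8.02% of all genes; 4 and 8 genes after quantile normalisation), with a median of -0.01. NQO1, a quinone reductase and NRF2 target, read 271, 325 and 454 in PC3 and 1153, 1143, 1268 and 1497 in DU-145 (-1.86 ± 0.20, adjusted p = 0.00211; 0.0519 without both PDGFRα lines). GSTO1 was lower by 1.13, GSTM2 higher by 1.06 and AKR1C3, which reduces steroids, higher by 1.00; glutathione transferases of the mu class are near-identical, so GSTM2 is uncertain. GSTO1 and AKR1C3 lost their calls without either DU-145 line (adjusted p up to 0.131). In the aldehyde dehydrogenase and progenitor list, 4 of 16 were higher and 1 lower (25% and 6.25%; median 0.05). ALDH1A3, a retinal dehydrogenase, read 322, 401 and 482 in PC3 and 69.7, 72.0, 52.8 and 65.5 in DU-145 (2.62 ± 0.16, adjusted p = 2.17e-04); its other probe set differed by 0.07, so the probe sets of this gene disagree. ALDH2 was lower by 0.57.

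Within the PI3K, AKT and FOXO list, 2 of 19 were higher and 1 lower (10.5% and 5.26%, against 9.60% and 8.02% of all genes; 2 and 4 genes after quantile normalisation; median 0.03). IGF1R, the receptor for insulin-like growth factors, read 25.1, 29.3 and 33.0 in PC3 and 179, 176, 173 and 148 in DU-145 (-2.51 ± 0.07, adjusted p = 1.01e-05), and its other probe set differed by -1.16. TXNIP, an inhibitor of thioredoxin and of glucose uptake, read 341, 425 and 936 against 142, 80.5, 35.8 and 37.1 (3.04 ± 0.51, adjusted p = 0.01) and varied in both backgrounds. PIK3R3, a regulatory subunit, was higher by 1.03. TXNIP lost its call without DU-145 (PDGFRα) (adjusted p = 0.0733) and PIK3R3 without either DU-145 line (up to 0.115).

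Genes known to be altered in PC3 or DU-145 were measured for 4 of the 7 listed; the others were not analysed here. Beside CTNNA1, RB1, the retinoblastoma protein gene that DU-145 carries mutated, read 99.1, 118 and 135 in PC3 and 184, 168, 178 and 183 in DU-145 (-0.59 ± 0.08, adjusted p = 0.00569), so its transcript read higher in the background that carries it mutated; the call ended without DU-145 (PDGFRα) (0.0573). CDKN2A, a kinase inhibitor gene, was lower in PC3 by 0.56 and lost its call without both PDGFRα lines (0.0705) or the second array of every line (0.0744). STK11 read 34.5, 38.6 and 42.3 against 35.6, 32.1, 33.9 and 39.8 and did not pass (adjusted p = 0.223). E2F targets and the RB family were higher for 4 of 25 and lower for 3 (16% and 12%, against 9.60% and 8.02% of all genes; median 0.07). After quantile normalisation the counts were 1 and 5 and with centred arrays 3 and 4, and the balance over all genes moved the same way. E2F7, a repressive E2F, was higher by 1.13 and CCND1 by 0.75, while MCM4, a helicase subunit, was lower by 0.73. E2F7 lost its call without either DU-145 line (up to 0.0854) and MCM4 without PC3-ML (Clone 3) replicate 1 (0.0514) or without PC3-ML, PC3-N, PC3-N(PDGFRα) or DU-145 (up to 0.16). CCND1 lost its call without any single line but PC3-N(PDGFRα) (up to 0.255) and without PC3-ML replicate 2, PC3-N(PDGFRα) replicate 2, DU-145 replicate 2, DU-145 (PDGFRα) replicate 1 or PC3-ML (Clone 1) replicate 1 (up to 0.0591). Of 6 mismatch repair genes measured, MSH3 was higher (0.87; 16.7% against 9.60% of all genes), and lost its call without both PDGFRα lines (0.0823). Of 19 p53 targets, FAS (-0.41) and PHLDA3 (-0.19) were lower and none higher (10.5%, near the 8.02% of all genes). FAS lost its call without both PDGFRα lines or either array of every line (up to 0.0715). PHLDA3 lost its call without any single line but PC3-N(PDGFRα), and without either PC3-N array, PC3-N(PDGFRα) replicate 1, DU-145 replicate 2, DU-145 (PDGFRα) replicate 1 or PC3-ML (Clone 1) replicate 2 (up to 0.204).

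Of 16 simple epithelial markers, 2 were higher and 2 lower (12.5% each, against 9.60% and 8.02% of all genes; median -0.02). EPCAM, a pan-epithelial surface protein, read 434, 569 and 1747 in PC3 and 1485, 1679, 1093 and 1138 in DU-145 and did not pass (adjusted p = 0.257). KRT8 read 207, 302 and 511 against 791, 547, 562 and 539 (adjusted p = 0.0841) and KRT18 36.3, 111 and 309 against 206, 178, 121 and 205 (0.492). The PC3 line means spanned 1.08 for KRT8 and 2.20 for KRT18, more than the differences of -0.96 and -0.66 between the backgrounds, though the arrays did not overlap for KRT8. MAL2, a membrane traffic protein, was higher in PC3 by 1.99 and lost its call without DU-145 (PDGFRα) (0.0936). KRT19 (0.68) lost its call without any single line but PC3-ML, and SPINT2 (-0.53) without PC3-N(PDGFRα) or either DU-145 line (up to 0.267). KRT19 lost it also without the second array of PC3-ML, PC3-N or DU-145 or the first of either clone (up to 0.0899), and SPINT2 without PC3-ML (Clone 1) replicate 1 (0.0621). Of 9 basal markers, ITGA6 and CD44 (0.65) were higher and none lower (22.2%, against 9.60% of all genes), CD44 not without PC3-ML, PC3-N or either DU-145 line (up to 0.189).

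The androgen receptor program was called for 2 of 13 genes, both higher in PC3 (15.4%, against 9.60% of all genes; median 0.02). Its summed intensity was 742 to 1027 on PC3 arrays and 604 to 653 on DU-145 arrays. Most of that difference lay in HOXB13 and in NDRG1, which read 148 in PC3 and 87.0 in DU-145 and did not pass (limma adjusted p = 0.204). Of the 13 genes, 4 were under 32 on all arrays. HOXB13, a homeobox factor of the prostate, read 85.4, 131 and 259.9 in PC3 and 29.0, 39.9, 30.4 and 31.9 in DU-145 (2.11 ± 0.31, adjusted p = 0.00649), and lost its call without DU-145 (PDGFRα) (0.0641). KLK3, which encodes PSA, was near the floor in both, at 24.2, 26.7 and 29.6 against 26.6, 28.8, 26.8 and 25 (adjusted p = 0.953), so this prostate marker was at the floor on every array. FOXA1 was higher by 0.29 and lost its call without any single line but PC3-N and PC3-ML (Clone 1) (up to 0.203). It also lost it without any of 9 arrays (up to 0.175), the 5 others being PC3-ML replicate 1, PC3-N replicate 2, DU-145 replicate 1, DU-145 (PDGFRα) replicate 2 and PC3-ML (Clone 1) replicate 1. Of 24 HOX genes measured, 1 was higher, HOXB13, and 5 were lower (4.17% and 20.8%, against 9.60% and 8.02% of all genes), among them HOXB7 (-1.07), HOXC9 (-0.81) and HOXC10 (-0.64), with a list median of -0.15; HOXB7 lost its call without DU-145 (PDGFRα) and HOXC10 without either DU-145 line (up to 0.0681).

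Neuroendocrine markers were called lower for 2 of 11 (18.2%, against 8.02% of all genes). UCHL1, a ubiquitin hydrolase of neurons, read 22.0, 24 and 25.7 in PC3 and 1715, 1122, 853 and 1045 in DU-145 (-5.58 ± 0.14, adjusted p = 7.21e-06). The summed intensity of the 11 was 314 to 366 on PC3 arrays and 1145 to 2039 on DU-145 arrays. UCHL1 alone made up most of the sum on the DU-145 arrays. CHGA (23.9 and 23.8) and SYP (24.5 and 24.6), the defining markers, were at the floor in both. Of the 11, 7 were under 32 on all 14 arrays, the other called gene, SNAP25, among them. SNAP25 (-0.14) lost its call without PC3-N(PDGFRα) replicate 1 or DU-145 (PDGFRα) replicate 1 (up to 0.0648) and without any single line but PC3-ML (Clone 1) (up to 0.139). Fibroblast and stromal markers were called for 0 of 11 by limma, with 0 at an unadjusted p under 0.05, 8 of 11 under 32 on all arrays and sums of 308 to 377 and 298 to 338. Leukocyte and endothelial markers were higher for 2 of 11 (18.2%, against 9.60% of all genes), KDR (1.78) and PECAM1 (1.44), with 8 of 11 under 32 on all arrays, PTPRC and CD3E among them, and sums of 382 to 571 in PC3 and 326 to 378 in DU-145. KDR lost its call without PC3-ML, PC3-N(PDGFRα) or either DU-145 line and PECAM1 without either DU-145 line (up to 0.164). No part of other cells in these results was tested; the cultures are cell lines.

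In the remaining lists, cancer/testis antigens were lower for 2 of 17 and higher for 0 (11.8% lower, against 8.02% of all genes). CT83 read 23.5, 25 and 27.8 in PC3 against 208, 161, 101 and 102 (-2.44 ± 0.20) and DDX43 21.3, 22.8 and 24.1 against 128, 154, 217 and 176 (-2.86 ± 0.12). Both read over 100 on every DU-145 array and were at the floor on every PC3 array. Of 7 PDGF ligands and receptors, PDGFC (0.90) and PDGFD (0.31) were higher in PC3 (28.6%, against 9.60% of all genes), and lost their calls without DU-145 (PDGFRα) or, for PDGFD, either DU-145 line (up to 0.0728). PDGFD was near the floor in both backgrounds, at 26.8 to 31.9 on PC3 arrays and 22.3 to 24.4 on DU-145 arrays. PDGFRA itself, raised by design in 1 line of each background, read 26.5, 117 and 850.4 in PC3 and 28.2, 25.5, 129.6 and 92.2 in DU-145 and differed by 1.29 ± 1.23 (adjusted p = 0.535).

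**Figure D4:**
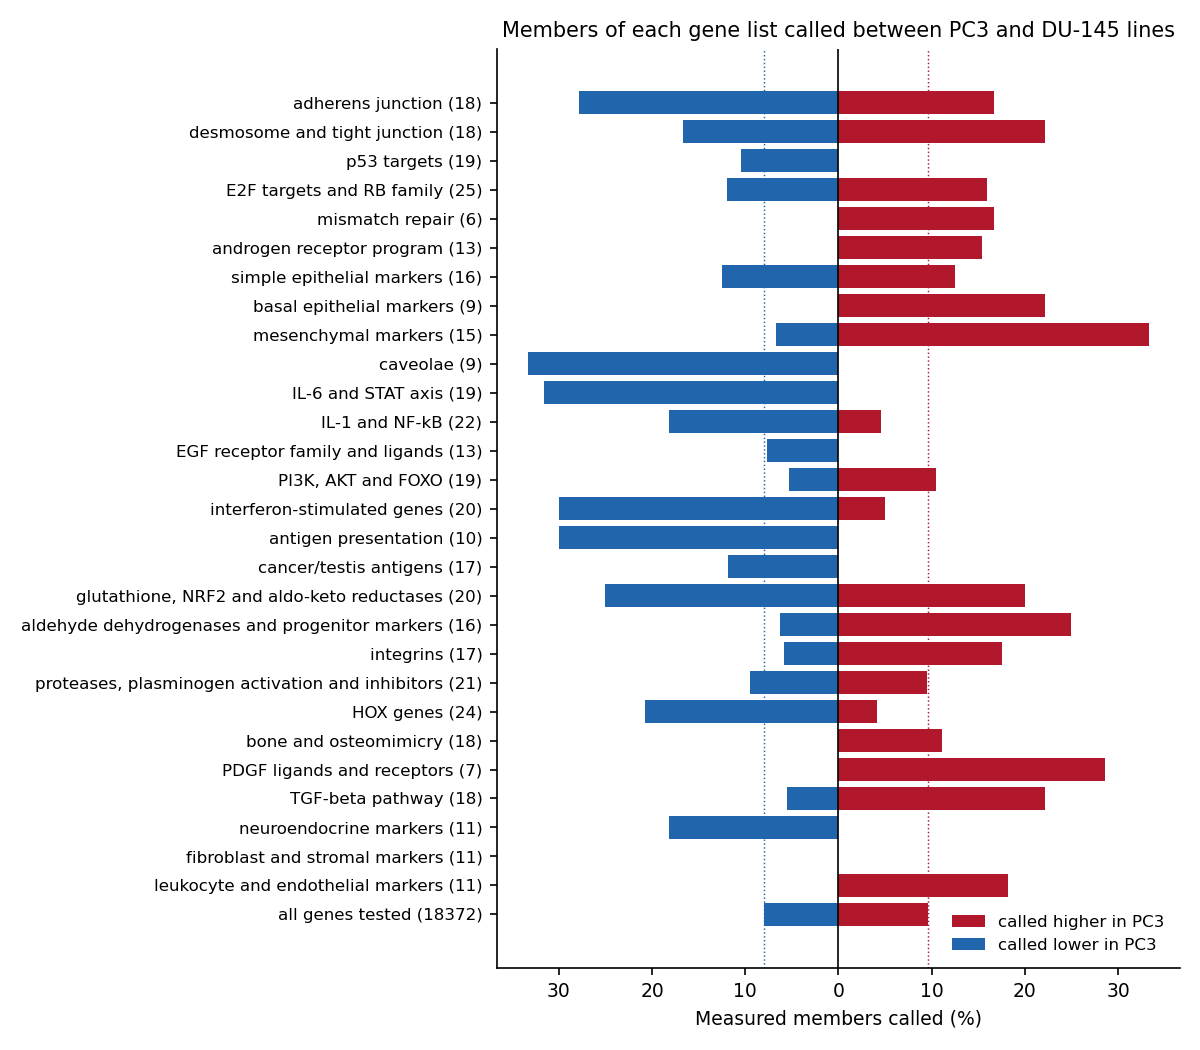
For each gene list of 6 or more measured genes, with its number of measured genes in brackets, the percent of members called higher (red, right) and lower (blue, left) in PC3 by limma on line means, with dotted lines at the shares of all genes. Caveolae and the IL-6 and STAT axis have 33.3% and 31.6% of members lower and none higher, and mesenchymal markers have 33.3% higher; other scalings change the counts of several lists.

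Of the genes with wide gaps that the constant rule left out, most of those higher in PC3 varied among the PC3 lines. CALB1, a calcium-binding protein, read 1255, 1757 and 2349 in PC3 and 23.3, 22.1, 22.6 and 23.6 in DU-145, a difference of 6.25 ± 0.21, and its PC3 line means spanned 0.73. FST (4.80) spanned 1.49, SULF2 (4.35) 0.92, ADGRF1 (4.19), an adhesion receptor, 1.05, SERPINB7 (3.82) 1.30 and SRGN (3.57), a proteoglycan core protein, 1.56; SRGN lost its call without both PDGFRα lines (limma adjusted p = 0.0767). PI3, the protease inhibitor elafin, spanned 2.89 (4.39; call lost without DU-145 (PDGFRα), limma adjusted p = 0.0911). The arrays of these genes did not overlap between backgrounds, which follows largely from choosing them for a gap, and the PC3 level depended on the line. Over all genes tested, 10.1% had every PC3 array above every DU-145 array. Toward DU-145, LY6K (-4.26), PLAAT1 (-3.83), COXFA4L3 (-3.63), GNAQ (-3.43), a G protein subunit, BCAT1 (-3.24), a branched-chain aminotransferase, and KYNU (-2.99), of tryptophan breakdown, were left out for spans of 0.53 to 0.98 in PC3, and UCHL1 and EFEMP1 (-3.07) for spans of 0.56 and 0.71 in DU-145.

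Called genes were unevenly placed over chromosomes. On X, 18.1% of 692 tested genes were higher and 2.89% lower in PC3, and on chromosome 20, 19.3% and 3.18% of 534. Chromosome 3 had 15.9% higher and 6.73% lower. Chromosome 9 ran the other way, with 2.74% higher and 14.5% lower of 731, as did chromosomes 10 (10.3% and 16.9%), 13 (5.06% and 13.3%) and 14 (8.35% and 12.8%). For these 7 chromosomes the order of the shares was the same after quantile normalisation and with centred arrays, whereas for others, such as 1, 2, 6, 12 and 19, it was not. Among the constant and apart genes, 10 lay on X, 8 of them higher in PC3, and all 7 on chromosome 14 were lower. Of 23 genes tested on Y, 11 were lower in PC3 (47.8%) and 0 higher by limma, and 5 of the 117 lay there.

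Runs of neighbouring genes differed in the same direction. Over windows of 25 genes above an intensity of 64, chosen after their values were seen and so without a test, the highest median difference lay on X from PUDP to CNKSR2 at 0.97, with 21 of 25 called higher and PDHA1 of pyruvate dehydrogenase and the chromatin protein MSL3 inside it. The window on chromosome 10 from DNAJC9 to TMEM254 stood at 0.96 and contains VCL, and that on chromosome 17 from HOXB9 to MBTD1 stood at 0.89 and contains HOXB13. On chromosome 12, CMAS to PKP2 (0.88) contains RASSF8 and PKP2, and also BCAT1, which is lower. The lowest window was on chromosome 14 from TINF2 to SLC25A21 at -1.02, with 20 called lower and 2 higher, and includes NFKBIA, the inhibitor of NF-kB. In the X window the 5 PC3 lines ran from 0.80 to 1.06 as medians and in the chromosome 14 window from -1.07 to -0.86, while DU-145 (PDGFRα) differed from DU-145 by -0.06 and 0.07. In both windows every PC3 line lay on the same side of DU-145, which picking the most extreme medians made nearly certain. The counts called in a window are extremes for the same reason. Over all genes, 9.60% were called higher and 8.02% lower.

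**Figure D5:**
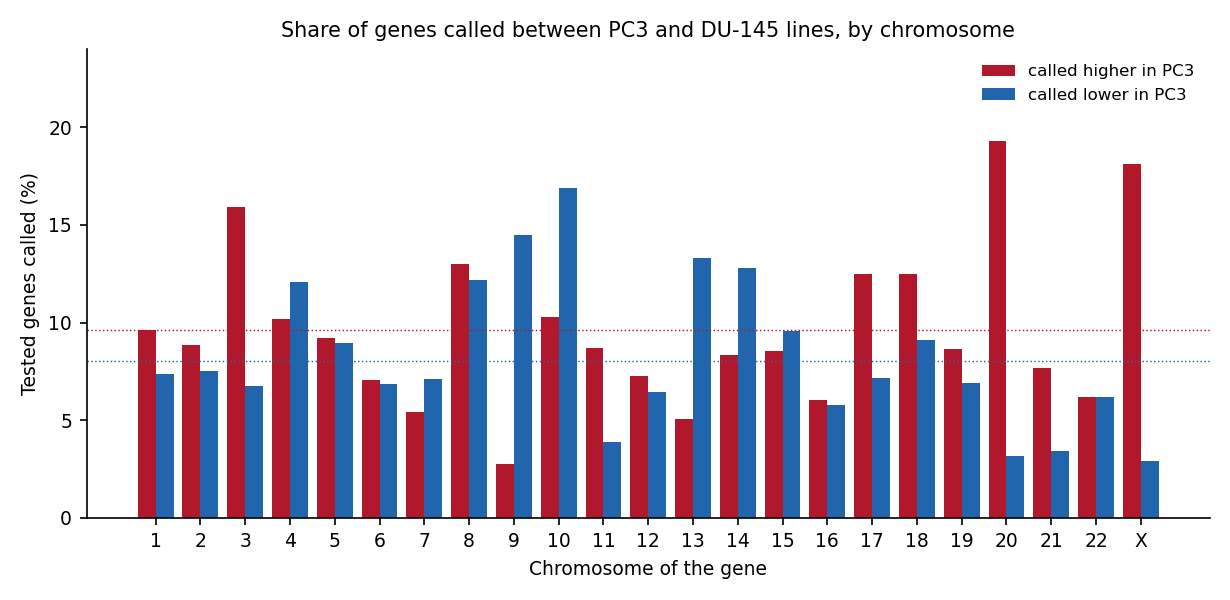
Share of tested genes per chromosome called higher (red) and lower (blue) in PC3, in percent, with dotted lines at the shares of all genes, 9.60% and 8.02%; the Y chromosome is not drawn. Of those drawn, X and chromosome 20 stand highest in red with 18.1% and 19.3%, and chromosomes 9, 10, 13 and 14 in blue.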

How the data were processed

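Biotin-labelled total RNA of 7 cell lines was read on 14 one-colour arrays, 2 per line. The deposited intensities were made by the authors with RMA, per the submitters' processing notes; the version is not given in the sources used here. They lie on a linear scale, from the values, and were converted to log2 with no pseudocount. Of 28829 probe sets, 19291 carried 1 gene symbol, 1735 several and 7803 none. For the 682 genes with several, the brightest stood for the gene, which left 18372 genes, with no filter on low values.

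The 2 arrays of a line were averaged, and 5 PC3 line means were compared with 2 DU-145 line means by limma 3.58.1 in R 4.3.3 (lmFit, eBayes, 5 residual degrees of freedom, two-sided), called at a Benjamini-Hochberg adjusted p under 0.05 over all genes. The code was tested on simulated data. Members and 29 gene lists were chosen with earlier results of these data known. Named were the 15 largest constant and apart genes of each direction (no small RNAs, Y-linked or unnamed genes), up to 4 called members of each list, a fixed set of background genes and neighbours of CTNNA1. Added after values were seen were the neighbours of STAT3, the 8 largest apart genes of each direction that were not constant, and levels of list members that were not called. RefSeq (GRCh38.p14) gave gene order and promoters. Same-numbered arrays of different lines did not pair: their deviations correlated at -0.199 to 0.245, over 0.1 in 5 of 21 pairs of lines. Alternatives varied the unit, scaling, filter, probe set, prior, limits, arrays and lines. The number of arrays limits the precision.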

Additional observations from a re-analysis of the deposited data

Results flagged for a closer look

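For 8 named genes, 1 PC3 line mean stood apart from the other 4, with a gap to its nearest neighbour of over 0.71 of the whole range. By chance this occurs for about 1 in 20 groups, and 152 named genes were looked at. PC3-N(PDGFRα) was the highest line for BCAT1, at 33.6 against 22.6 to 24.3 in the others, and for IFI6, at 44.9 against 34.1 to 36.6. PC3-ML was highest for CAVIN3 (28.1 against 25.4 to 26.1). PC3-ML (Clone 1) was highest for ELOVL7 (26.0 against 22.9 to 23.4), HSPA9 (2189.9 against 1578 to 1735) and IL1R1 (27.0 against 21.4 to 22.5). PC3-ML (Clone 3) was highest for DSC3 (399.6 against 142 to 188) and lowest for ETF1 (166 against 223 to 249). ELOVL7, CAVIN3 and IL1R1 lay near the floor in every PC3 line.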

How the results depend on the processing

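Of 123 called genes among the 152 named, 105 kept their call without any 1 array, 74 without any array or line and 65 under every alternative, and none reversed. Called genes numbered 3237 on line means, 7133 with a mean per line fitted to all 14 arrays (spread between passages) and 7138 with the replicate number as a block in that fit; the numbers do not pair the arrays. The count was 2032 to 3631 without 1 array or 1 replicate number, 1569 without DU-145, 1180 without DU-145 (PDGFRα) and 752 without both PDGFRα lines, where fewer lines entered. Constant and apart genes numbered 117 and ran from 81 to 130 without 1 array or replicate number; they were 192 without DU-145, 185 without PC3-ML (Clone 1), 201 without both PDGFRα lines and 281 without both clones. With a range limit of 0.25 they were 33, with a limit of 1 they were 242, and with a gap of 2 they were 31. The 24 genes near the floor in 1 background alone were 24 to 31 without 1 array or replicate number, 57 with an on level of 6 and 11 with an on level of 8 (log2). Quantile normalisation gave 1490 higher and 1955 lower genes, centring 1667 and 1656, against 1764 and 1473 as deposited. Signal near the floor limits folds of genes at that level, and only 2 DU-145 lines limit that background's spread. The cause of the changes was not tested.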
